A study of Mus musculus with 6 samples.

Results

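Cathepsins are the proteases of the lysosome. The 10 cathepsin genes described here are Ctsa, Ctsb, Ctsc, Ctsd, Ctse, Ctsh, Ctsk, Ctsl, Ctss and Ctsz, taken by their symbols from the 24421 gene symbols of a bulk RNA-seq experiment on the mouse olfactory bulb. All 10 were listed in every library and all 10 passed the filter on low values. The experiment asked how gene expression changes in adult astrocytes that lose Sox9, a transcription factor of the glial lineage. It held 6 libraries, 1 per male mouse, with 3 Sox9 KO mice and 3 control mice. Every mouse, control or KO, had received AAV-GFAP-iCre-P2a-TurboRFP in the bulb, a virus in which the GFAP promoter drives both the recombinase Cre and the red fluorescent protein TurboRFP. KO mice carried Sox9fl/fl, in which Cre removes the floxed part of Sox9, while the controls are labelled WT. The labels give the strain as C57BL/6 and name the controls C57BL/6J, while the methods call them Sox9+/+, which leaves their exact origin unclear. Red cells were sorted 4 weeks after the injection, so each group holds whatever cells passed the TurboRFP gate, and the choice of astrocytes rests on the GFAP promoter.

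Cathepsins are made as inactive precursors, carried to endosomes and lysosomes by sorting receptors that recognise a sugar tag, and activated there by cleavage at low pH. Most are papain-like cysteine proteases, Ctsd and Ctse are aspartic proteases, and Ctsa is a serine carboxypeptidase. Every cell with lysosomes uses the common ones. Microglia, the resident macrophages of the brain, and other antigen-presenting cells are known for high Ctss, which trims the invariant chain from MHC class II molecules.

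The values are normalized counts, that is, reads on a gene divided by 1 size factor per library. Between 18242129 and 86906527 reads fell on genes, and 1 read was worth 0.395 to 1.58 normalized counts. Sox9 itself stood at 5185, 6562 and 4921 normalized counts in controls, against 52.6, 64.3 and 57.7 in KO. The labelled cell type held in the controls and much less so in the KO libraries. The summed level of 10 astrocyte markers was 453190 to 503934 in controls and 31861 to 40648 in KO, and 10 of the 10 were called lower, among them Slc1a2, Slc1a3 and Aqp4. The rule for calling is given below, and by it 22.2% of all genes tested were called higher and 28.8% lower. The summed level of 11 pan-myeloid markers, which microglia and other macrophages share, was 135861 to 145716 in controls and 504101 to 582376 in KO. All 11 were called higher, among them Csf1r, C1qb and Itgam, and none of the 11 was at 0 in all libraries. Of 9 homeostatic microglia markers, 8 were called higher, and their sum was 84022 to 106102 in controls and 256674 to 317965 in KO. These marker levels separated the same libraries in every comparison of KO with control given here, and their part in the results was not tested. In bulk samples, fewer cells of a type and less RNA per cell cannot be told apart. Replicates of a group differed by more than the sampling noise of their reads, and no library was a copy of another.

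Promoter windows were available for 7 of the 10 genes, from RefSeq on GRCm38.p6, each running from 250 bases before the annotated start to 50 bases after it. Ctsb, Ctse and Ctsh had no entry. The windows of 4 of the 7 held letters known as binding motifs of regulators of lysosomal or myeloid genes, and those sites are shown. The 4 genes were Ctss, Ctsc, Ctsd and Ctsl, which all rose in KO. So did Ctsa and Ctsz (log2 fold changes of 1.64 and 1.89), whose windows held no such letters. CACGTG is the core letter sequence read by TFEB and its relatives, and the CLEAR element is a 10-letter palindrome that contains CACGTG. GAGGAAGT is a site of the PU.1 type, and PU.1 is the factor that myeloid cells depend on. Both strands were searched. CACGTG was found in 2 of the 7 windows and in 7.24% of 27025 mouse promoters of the same length. The CLEAR element was found in 0 of the 7 and in 0.359% of all promoters, and GAGGAAGT in 2 of the 7 and in 3.28%. The sites are given on the strand of the gene, with the motif in capitals, and distances are counted from the RefSeq start. That start equals the GENCODE gene start used for the gene coordinates below for Ctss and Ctsc, but lies 211 bases inside the GENCODE gene for Ctsd and 370 bases inside it for Ctsl. ACTTCCTC is GAGGAAGT read on the other strand.
Ctss, chr3:95526773-95526802, + strand, 2 bases before the RefSeq start: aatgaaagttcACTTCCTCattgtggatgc
Ctsc, chr7:88277923-88277952, + strand, 151 bases before the RefSeq start: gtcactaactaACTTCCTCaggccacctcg
Ctsd, chr7:142387908-142387937, - strand, 98 bases before the RefSeq start and inside the GENCODE gene: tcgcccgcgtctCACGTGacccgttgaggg
Ctsd, chr7:142388048-142388077, - strand, 245 bases before the RefSeq start: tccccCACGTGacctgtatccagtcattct
Ctsl, chr13:64370739-64370768, - strand, 236 bases before the RefSeq start and inside the GENCODE gene: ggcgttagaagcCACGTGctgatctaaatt
The windows of Ctsa, Ctsk and Ctsz held none of these letters. A match describes the sequence and does not show that a factor binds there.

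In KO libraries, 9 of the 10 cathepsins were called higher than in controls, 0 were called lower, and Ctsk alone did not pass the test. A gene was called when its limma p-value, adjusted by the Benjamini-Hochberg method over all 18413 genes tested, was under 0.05 and its change was at least 1.5-fold. By that rule 22.2% of all genes tested were called higher and 28.8% lower. The median log2 fold change was 1.77 for the 10 cathepsins and -0.07 for all genes tested. Every KO library lay above every control for the 9 genes called, a pattern that 32.4% of all genes tested shared. The 10 genes together took 0.523%, 0.558% and 0.596% of the reads in controls and 1.73%, 1.74% and 1.97% in KO libraries. Their summed level was 3.83-fold that of controls, beside 3.91-fold for the pan-myeloid markers and 3.075-fold for the homeostatic microglia markers. The sum covers unlike members, with ratios of group means from 2.84 for Ctsd to 6.53 for Ctss among the 9 genes called.

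**Figure D1:**
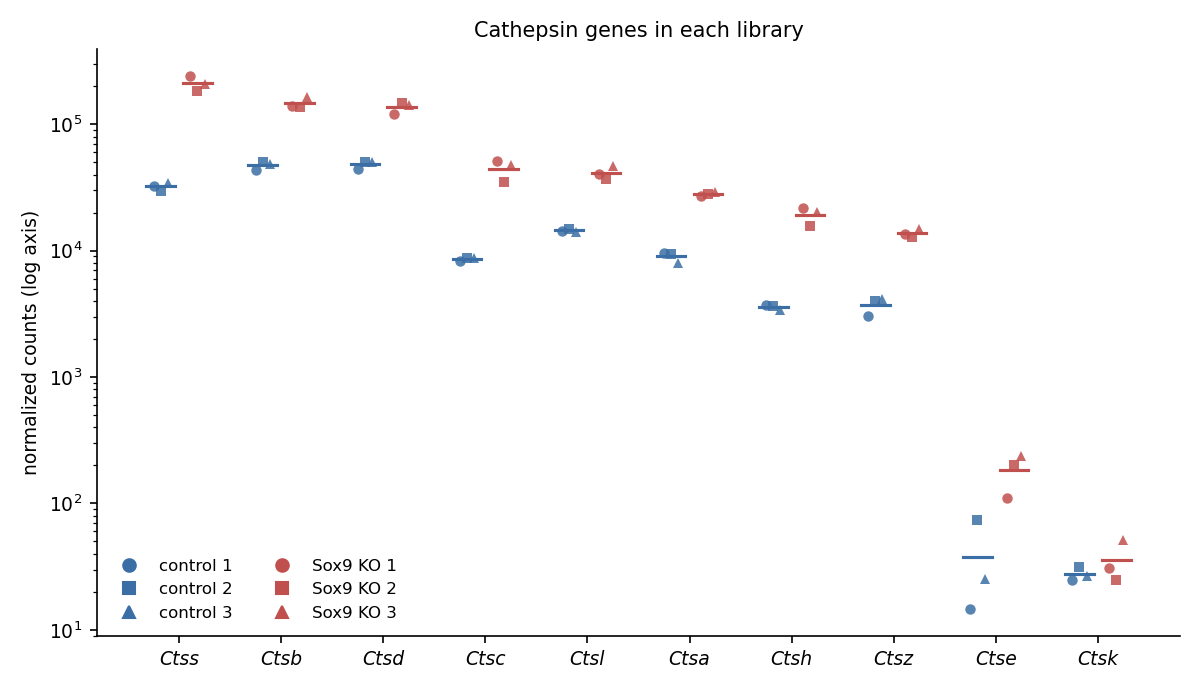
Normalized counts of the 10 cathepsin genes on a log axis, with 1 point per library (circle, square and triangle for replicates 1, 2 and 3 of controls in blue and of Sox9 KO in red) and a bar at each group mean. The 3 KO points lie above the 3 control points for all genes but Ctsk, whose groups overlap.

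Ctss, the cysteine protease that processes the invariant chain and stays active at neutral pH, had the largest log2 fold change of the 10 genes on the deposited scale, although that of the scarce Ctse, with its wide interval, exceeded it after quantile normalization and without control replicate 2 or KO replicate 1. It lies at chr3:95526786-95556403 on the + strand of GRCm38. Its normalized counts were 32545, 29816 and 34538 in controls and 241464, 183996 and 207391 in KO. The lowest KO library was thus far above the highest control. This was a log2 fold change of 2.70 (SE 0.13, 95% interval 2.40 to 3.0, limma adjusted p = 7.0e-08), and only 1.10% of the genes tested had a larger one. After quantile normalization it was 1.98, next to 1.97 for Ctsh. KO replicate 2 was the lowest of the KO libraries for Ctss, as it was for Ctsb, Ctsc, Ctsh, Ctsk, Ctsl and Ctsz.

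Ctsc and Ctsh are exopeptidases that take residues off the amino end of proteins, and Ctsc, dipeptidyl peptidase I, is known for activating the granule serine proteases of leukocytes. Ctsc (chr7:88278085-88310888, + strand) had 8346, 8743 and 8786 normalized counts in controls and 51016, 35016 and 47630 in KO. Its controls lay close together, with a coefficient of variation far below that of the KO libraries, where it was 18.9%. Ctsc thus rose by 2.35 on the log2 scale (SE 0.13, 95% interval 2.05 to 2.65, limma adjusted p = 1.8e-07). Ctsh (chr9:90054152-90076089, + strand), an aminopeptidase, had 3691, 3634 and 3416 normalized counts in controls and 21569, 15729 and 20311 in KO. Its order of KO libraries was that of Ctsc, with replicate 1 highest and replicate 2 lowest. For Ctsh the log2 fold change was 2.41 (SE 0.12, 95% interval 2.15 to 2.68, limma adjusted p = 7.0e-08).

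Ctsz, a carboxypeptidase at chr2:174427493-174439039 on the - strand, had 3061, 4014 and 4169 normalized counts in controls and 13602, 12889 and 14809 in KO. Control replicate 1 was its lowest library, and the groups lay far apart. Its log2 fold change was 1.89 (SE 0.12, 95% interval 1.61 to 2.16, limma adjusted p = 4.4e-07).

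Ctsb and Ctsl are the broad cysteine proteases of lysosomal protein turnover, present in nearly every cell. Ctsb (chr14:63122462-63145923, + strand) had 43111, 50267 and 48615 normalized counts in controls and 138977, 135814 and 163424 in KO, with no overlap. Ctsb rose by 1.62 on the log2 scale (SE 0.13, 95% interval 1.34 to 1.90, limma adjusted p = 1.5e-06). Ctsl, also known for trimming the invariant chain in the thymus, lies at chr13:64359337-64370890 on the - strand. It had 14441, 14830 and 14087 normalized counts in controls and 40594, 37107 and 46509 in KO, and the controls were the tighter group. For Ctsl the log2 fold change was 1.51 (SE 0.10, 95% interval 1.28 to 1.74, limma adjusted p = 6.5e-07).

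Ctsk, a collagen-cleaving protease of osteoclasts, was close to the floor of detection, with 17, 46 and 17 reads in controls and 31, 63 and 34 reads in KO. These reads made 24.8, 31.7 and 26.8 normalized counts in controls and 30.8, 24.9 and 51.7 in KO, and the groups overlapped. No difference was detectable at this depth. The log2 fold change was 0.29 (SE 0.39, limma adjusted p = 0.54), with a 95% interval from -0.58 to 1.17 that still holds changes of more than 1.5-fold. Ctsk was the member whose call and sign changed with the scaling of the libraries. Its log2 fold change was 1.14 and called higher after quantile normalization (limma adjusted p = 0.027), and -0.02 when the libraries were scaled to the same total without the ribosomal transcript Rn45s. Ctsk ends 17.4 kb before Ctss on the same strand of chromosome 3 (chr3:95499256-95509362), so these neighbours stood at the opposite ends of the family. The ratio of Ctss to Ctsk, chosen after their values were seen, was 942 to 1310 in controls and 4015 to 7846 in KO.

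Ctsd is the major aspartic protease of the lysosome and one of the enzymes whose loss causes neuronal ceroid lipofuscinosis. Located at chr7:142375911-142388038 on the - strand, it had 44072, 50571 and 49881 normalized counts in controls and 121453, 146374 and 142540 in KO. KO replicate 1 was its lowest KO library. Ctsd rose by 1.5 on the log2 scale, next to 1.51 for Ctsl, a difference far within their errors (SE 0.12, 95% interval 1.23 to 1.78, limma adjusted p = 2.4e-06). Ctse, the non-lysosomal aspartic relative found in endosomes of immune cells, lies at chr1:131638306-131675505 on the + strand. It rested on few reads, with 10, 107 and 16 in controls and 112, 513 and 157 in KO. These made 14.6, 73.6 and 25.2 normalized counts in controls and 111, 203 and 239 in KO. All KO libraries were above all controls, though control replicate 2 stood well above the other controls. Ctse had a log2 fold change of 2.49 with the widest interval of the genes called, 1.32 to 3.67 (SE 0.53, limma adjusted p = 0.0021). It was 3.12 without control replicate 2 and stayed called.

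Ctsa, which protects the lysosomal enzymes beta-galactosidase and neuraminidase 1 in a complex and is also a carboxypeptidase, lies at chr2:164832873-164841032 on the + strand. Its normalized counts were 9646, 9474 and 7950 in controls and 27029, 28172 and 29154 in KO. The KO libraries were the tightest of any member, with a coefficient of variation of 3.78%. Ctsa rose by 1.64 on the log2 scale (SE 0.10, 95% interval 1.42 to 1.87, limma adjusted p = 2.6e-07).

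The fold changes of the 9 genes called ran from 2.84-fold for Ctsd to 6.53-fold for Ctss as ratios of group means. On the deposited scale they stayed called under all 17 alternatives, which were other scalings, filters, pseudocounts and tests, and leaving out each library in turn. Dividing by myeloid markers, after which most were not called, is described separately below. Quantile normalization gave lower values for Ctsd (log2 fold change 0.68), Ctsb (0.77), Ctsl (0.87), Ctsa (1.08) and Ctsz (1.47). Those of Ctsc (1.81), Ctsh (1.97) and Ctss (1.98) were lower too, while that of Ctse was higher (3.21). Parts of Ctsa, Ctsb and Ctsz overlap genes of the opposite strand, namely Neurl2 and Pltp, Fdft1, and Nelfcd. Since it is not given whether the counting used strand, reads from the shared ends cannot be told apart, but the mean levels of these neighbours were 34.3, 595, 1633 and 640 normalized counts.

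Relative to myeloid markers most cathepsins were not called in either direction. Each library was divided by the geometric mean of the 11 pan-myeloid markers, and the same test was run on that scale. On it 80.9% of all genes tested were called lower and 0.902% higher, with a median log2 fold change of -1.90. The cathepsins had a median of -0.20, with 1 called higher, 1 called lower and 8 not called. Ctss was the gene called higher, with a log2 fold change of 0.73 on this scale (SE 0.12, 95% interval 0.46 to 1.00, limma adjusted p = 0.00020), and 2.20% of the genes tested had a larger one. Every KO library was above every control for Ctss, Ctsc and Ctsh, as for 1.44% of all genes tested. Ctsc (0.38, 95% interval 0.09 to 0.67) and Ctsh (0.44, 95% interval 0.18 to 0.70) had adjusted p-values of 0.019 and 0.0049 in limma but stayed under 1.5-fold. The adjusted p-value of Ctsc rose to between 0.053 and 0.093 in limma when any library but KO replicate 2 was left out. That of Ctsh stayed at or under 0.030 without each library in turn.

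The values of the broad cathepsins were below 0, and none of them was called. Ctsa (-0.33), Ctsb (-0.35), Ctsl (-0.46) and Ctsd (-0.47) had limma adjusted p-values between 0.0045 and 0.039 on this scale and were also under 1.5-fold. The adjusted p-value of Ctsa rose to between 0.090 and 0.10 in limma without control replicate 1 or 2 or KO replicate 1. That of Ctsb rose to between 0.11 and 0.16 without control replicate 2 or 3 or KO replicate 1 or 2, and that of Ctsd to 0.062 and 0.057 without control replicate 2 or 3. KO libraries lay below all controls for Ctsa, Ctsd and Ctsl, as for 82.8% of all genes tested, while Ctsb overlapped. Ctsz differed by -0.08 with an interval from -0.38 to 0.22, and Ctse by 0.56 with an interval from -0.67 to 1.79. Ctsk was the gene called lower, by a log2 fold change of -1.61 (95% interval -2.49 to -0.73, limma adjusted p = 0.0029). With homeostatic microglia markers as the divisor the values of all 10 members were higher. Ctss was then joined by Ctsc (0.73, limma adjusted p = 0.0062) and Ctsh (0.79, limma adjusted p = 0.0015) among genes called higher, and Ctsa (0.02), Ctsb (0.00) and Ctsz (0.27) changed sign without being called. Ctsd (-0.12, limma adjusted p = 0.64) and Ctsl (-0.11, limma adjusted p = 0.62) were then also near 0. With the pan-myeloid divisor but without control replicate 2, Ctss and Ctse were called higher, Ctse at 1.21 (limma adjusted p = 0.043).

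**Figure D2:**
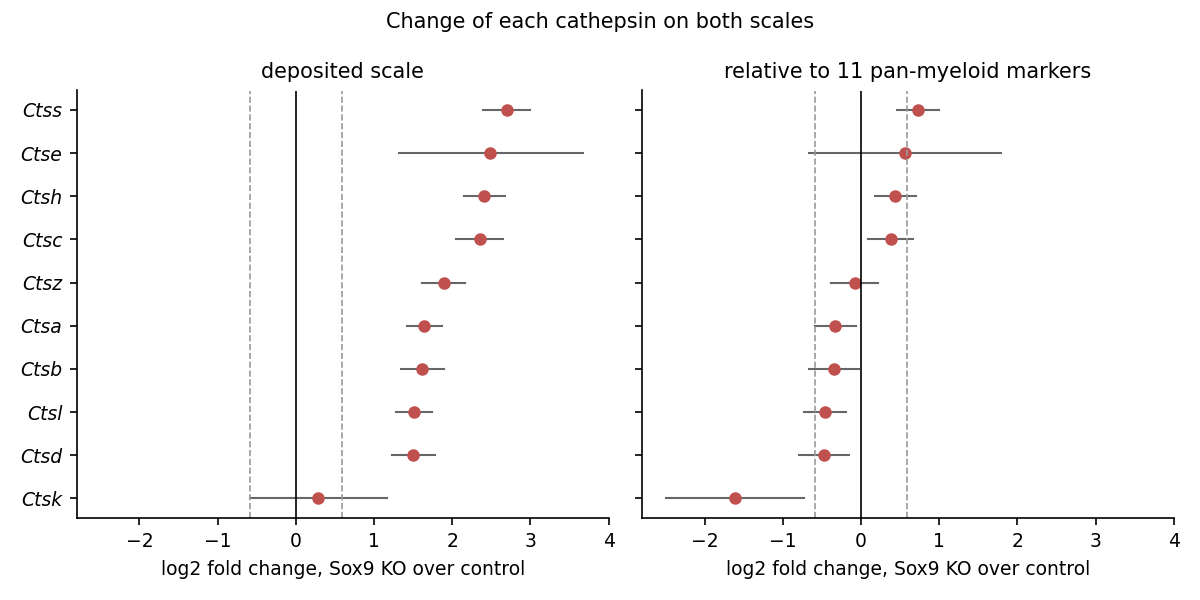
Log2 fold change of each cathepsin, Sox9 KO over control, as a point with its 95% interval from limma, on the deposited scale (left) and relative to 11 pan-myeloid markers (right), with dashed lines at 1.5-fold in either direction. On the left all genes but Ctsk lie right of the dashed line, and on the right Ctss, Ctsh and Ctsc lie above 0 while Ctsa, Ctsb, Ctsl and Ctsd lie below it, with their points within the dashed lines.

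The make-up of the cathepsin transcripts also shifted between the groups. To compare genes, levels were divided by the length of the longest annotated transcript, and each gene was given as a share of the summed level per kilobase of the 10 genes, a measure that no scaling between libraries can move. Ctss took 37.0%, 32.2% and 36.1% in controls and 57.2%, 49.8% and 50.6% in KO. Ctsd took 31.9%, 34.8% and 33.2% in controls and 18.3%, 25.2% and 22.1% in KO. Neither gene's groups overlapped. Ctss was above Ctsd in 2 of 3 controls and in 3 of 3 KO libraries. Without division by length the control shares were 19.3% for Ctss and 28.8% for Ctsd. Ctsb fell in share from a mean of 14.7% ± 0.773 (SD, n = 3) to 10.4% ± 0.995 (SD, n = 3), with groups apart. The KO shares of Ctsa, Ctsl and Ctsk were also below all controls, that of Ctsh was above all controls, and those of Ctsc, Ctsz and Ctse overlapped. The shares are given as a description, with no test.

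**Figure D3:**
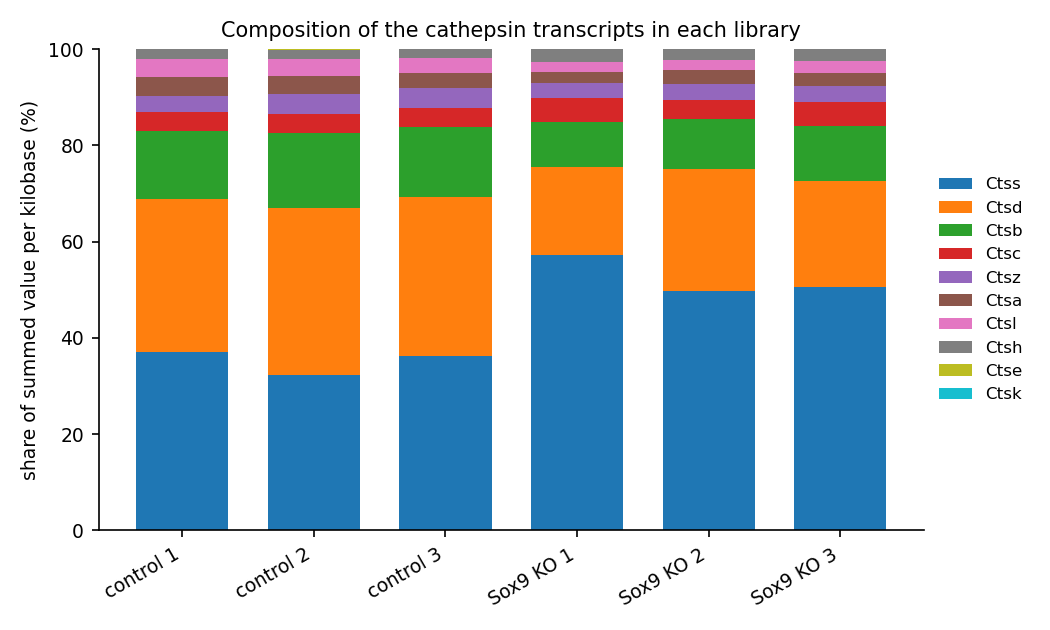
Stacked bars of the share of each cathepsin in the summed normalized counts per kilobase of all 10 genes, in percent, for the 3 control and the 3 Sox9 KO libraries. The Ctss segment at the base covers 32.2% to 37.0% of the control bars and 49.8% to 57.2% of the KO bars, and the Ctsd segment above it narrows.

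In level per kilobase, Ctss (23837 ± 1750, SD, n = 3) and Ctsd (22649 ± 1678, SD, n = 3) led the controls with ranges that overlapped. Ctsb (9979) came next, apart from both. Ctsc (2679), Ctsz (2601), Ctsa (2475) and Ctsl (2343) followed, and each overlapped its neighbour in this order. Ctsh (1305) stood below them with this length, though at 2214 and overlapping Ctsz and Ctsa with that of its principal transcript, and Ctsk (18.4) and Ctse (17.8) shared the bottom with overlapping ranges. In KO the first 5 places kept this order with no overlap, from Ctss (155683 ± 21328, SD, n = 3) and Ctsd (64311 ± 6309, SD, n = 3) to Ctsb (30797), Ctsc (13837) and Ctsz (9554). Ctsa (7712), Ctsh (7001) and Ctsl (6713) overlapped along this order, and Ctse (86.6) was above Ctsk (23.7) in all 3 libraries. The longest transcript of Ctsh retains an intron and that of Ctsc is not its principal isoform. With the APPRIS principal transcript, chosen after seeing this, the KO mean of Ctsh per kilobase was 11876 and it stood in place 5, above Ctsz.

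Ratios between members within a library, chosen after the values were seen and so given with no test, describe the same shift in normalized counts. Ctss over Ctsb was 0.593 to 0.755 in controls and 1.27 to 1.74 in KO. Ctsc over Ctsl was 0.578 to 0.624 in controls and 0.944 to 1.26 in KO, and Ctsh over Ctsl was 0.243 to 0.256 and 0.424 to 0.531. Ctsb over Ctsd, by contrast, had overlapping groups, at 0.975 to 0.994 in controls and 0.928 to 1.15 in KO. Ctsb and Ctsd thus stayed near equal counts in both groups, while Ctss counts exceeded those of both in every KO library.

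On the deposited scale no cathepsin outside the 10 was called in either direction. Of 13 further mouse cathepsins, 8 were at 0 in all libraries and 4 passed the filter, with 0 called and all groups overlapping. Among all genes tested, 22.2% were called higher and 28.8% lower. Ctsf and Ctso, lysosomal cysteine proteases, were 1446 ± 110 and 4775 ± 343 normalized counts in controls (SD, n = 3) and 1335 ± 134 and 4751 ± 263 in KO (SD, n = 3). Their log2 fold changes were -0.12 and -0.01. Relative to the pan-myeloid markers, 0 of the 4 tested were called higher and 3 lower, with a median of -2.03. For all genes tested that scale gave 80.9% called lower and a median of -1.90. Ctsw, a protease of killer lymphocytes, and Ctsg, a granule protease of neutrophils, had at most 50.4 and 8.95 normalized counts in any library.

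Endogenous cathepsin inhibitors moved unevenly. Of 9 tested, 5 were called higher, 2 lower and 2 not called, beside 22.2% higher and 28.8% lower among all genes tested. The median log2 fold change of the 9 was 1.10. Relative to the pan-myeloid markers 0 were called higher and 5 lower, with a median of -0.87. On that scale 80.9% of all genes tested were called lower, and their median was -1.90. Cst3, cystatin C, the main secreted inhibitor, was 72854 ± 5108 normalized counts in controls and 157276 ± 21937 in KO (SD, n = 3), a log2 fold change of 1.10 (limma adjusted p = 6.1e-05). After quantile normalization Cst3 stood at -0.02 and was not called. Cst7, cystatin F, which acts inside leukocyte lysosomes and blocks Ctsc, rose from 871 ± 267 to 3583 ± 1136 normalized counts (SD, n = 3), a log2 fold change of 2.05 (limma adjusted p = 5.1e-05). Serpinb6a rose by a log2 fold change of 1.10 (limma adjusted p = 8.1e-05). The cytosolic inhibitor Cstb had 1131 to 1658 normalized counts in controls and 1328 to 1976 in KO, which overlapped (log2 fold change 0.27, limma adjusted p = 0.22). Cst6 and Ctla2a were the genes called lower, named after their values were seen, and both were scarce, with at most 34.7 and 65.4 normalized counts in any library. The groups overlapped for Ctla2a (limma adjusted p = 0.050), and its call was lost with edgeR (adjusted p = 0.11) and after quantile normalization (adjusted p = 0.47). The ratio of Ctss to Cst3 was 0.413 to 0.494 in controls and 1.08 to 1.57 in KO, and that of Ctsb to Cstb was 30.3 to 38.1 and 72.9 to 102.

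Genes that mature and deliver cathepsins mostly rose. Of 12 tested, 8 were called higher, 1 lower and 3 not called, beside 22.2% higher and 28.8% lower among all genes tested. The median log2 fold change of the 12 was 0.88. Relative to the pan-myeloid markers 0 were called higher and 9 lower, with a median of -1.09. By comparison, 80.9% of all genes tested were called lower on that scale, with a median log2 fold change of -1.90. After quantile normalization 6 were called higher, Gnptab and Psap being lost. Lgmn, the asparaginyl endopeptidase that cleaves several cathepsins to their mature forms, had 13212, 12899 and 13540 normalized counts in controls and 40339, 35999 and 38386 in KO. Its log2 fold change of 1.53 (limma adjusted p = 2.0e-07) sat among those of the broad cathepsins. Grn, the precursor of lysosomal granulins, rose from 14532 ± 769 to 39081 ± 1152 normalized counts (SD, n = 3). Psap, which makes the saposins and binds the Ctsd precursor, rose from 25257 ± 1218 to 51989 ± 3691 (SD, n = 3), a log2 fold change of 1.04 that became 0.44 after quantile normalization. The mannose-6-phosphate receptors, which carry tagged cathepsins to the lysosome, moved in opposite directions. M6pr, the smaller receptor, rose by a log2 fold change of 1.19 (limma adjusted p = 4.0e-06). Igf2r, the larger receptor, named after its values were seen, fell by 1.25 on the log2 scale (limma adjusted p = 7.0e-06), with 1178 to 1401 normalized counts in controls and 487 to 562 in KO.

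Partners and substrates gave the largest values. Of 11 tested, 8 were called higher, 0 lower and 3 not called, beside 22.2% higher and 28.8% lower among all genes tested. The median log2 fold change of the 11 was 3.0. Cd74, the invariant chain that Ctss trims, had 3083, 2083 and 2396 normalized counts in controls and 133429, 69033 and 66676 in KO. KO replicate 1 was the highest library for Cd74 and for Ctss alike. Cd74 rose by 5.09 on the log2 scale (limma adjusted p = 6.0e-08). H2-Aa, H2-Ab1 and H2-Eb1, chains of MHC class II, had log2 fold changes of 5.23, 5.11 and 5.11 (limma adjusted p between 5.0e-08 and 7.5e-08). Relative to the pan-myeloid markers, 6 of the 11 genes were still called higher, Cd74 among them at 3.12, beside 0.902% of all genes tested. Called lower were 2, Glb1 (-0.67) and Neu1 (-0.77), beside 80.9% of all genes tested. Glb1 and Neu1, the enzymes of the Ctsa complex, were named after their values were seen. On the deposited scale they rose by 1.3 and 1.19 on the log2 scale (limma adjusted p of 1.4e-06 and 3.8e-06), beside 1.64 for Ctsa. The granule proteases that Ctsc activates, Elane, Prtn3 and Gzmb, had at most 62.6, 22.0 and 6.08 normalized counts in any library and were the 3 not called.

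Transcription factors that read CACGTG letters in lysosomal promoters rose together, with 4 of 4 called higher, beside 22.2% of all genes tested. The log2 fold change was 0.92 for Tfeb, 1.24 for Tfe3, 1.67 for Tfec and 1.88 for Mitf, with a median of 1.46. Mitf, the member with the largest change, had 807, 878 and 1026 normalized counts in controls and 3353, 3356 and 3219 in KO (limma adjusted p = 1.8e-07). Relative to the pan-myeloid markers none of the 4 was called higher and 2 were called lower, Tfeb (-1.05) and Tfe3 (-0.73). Of all genes tested 80.9% were called lower on that scale.

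**Figure D4:**
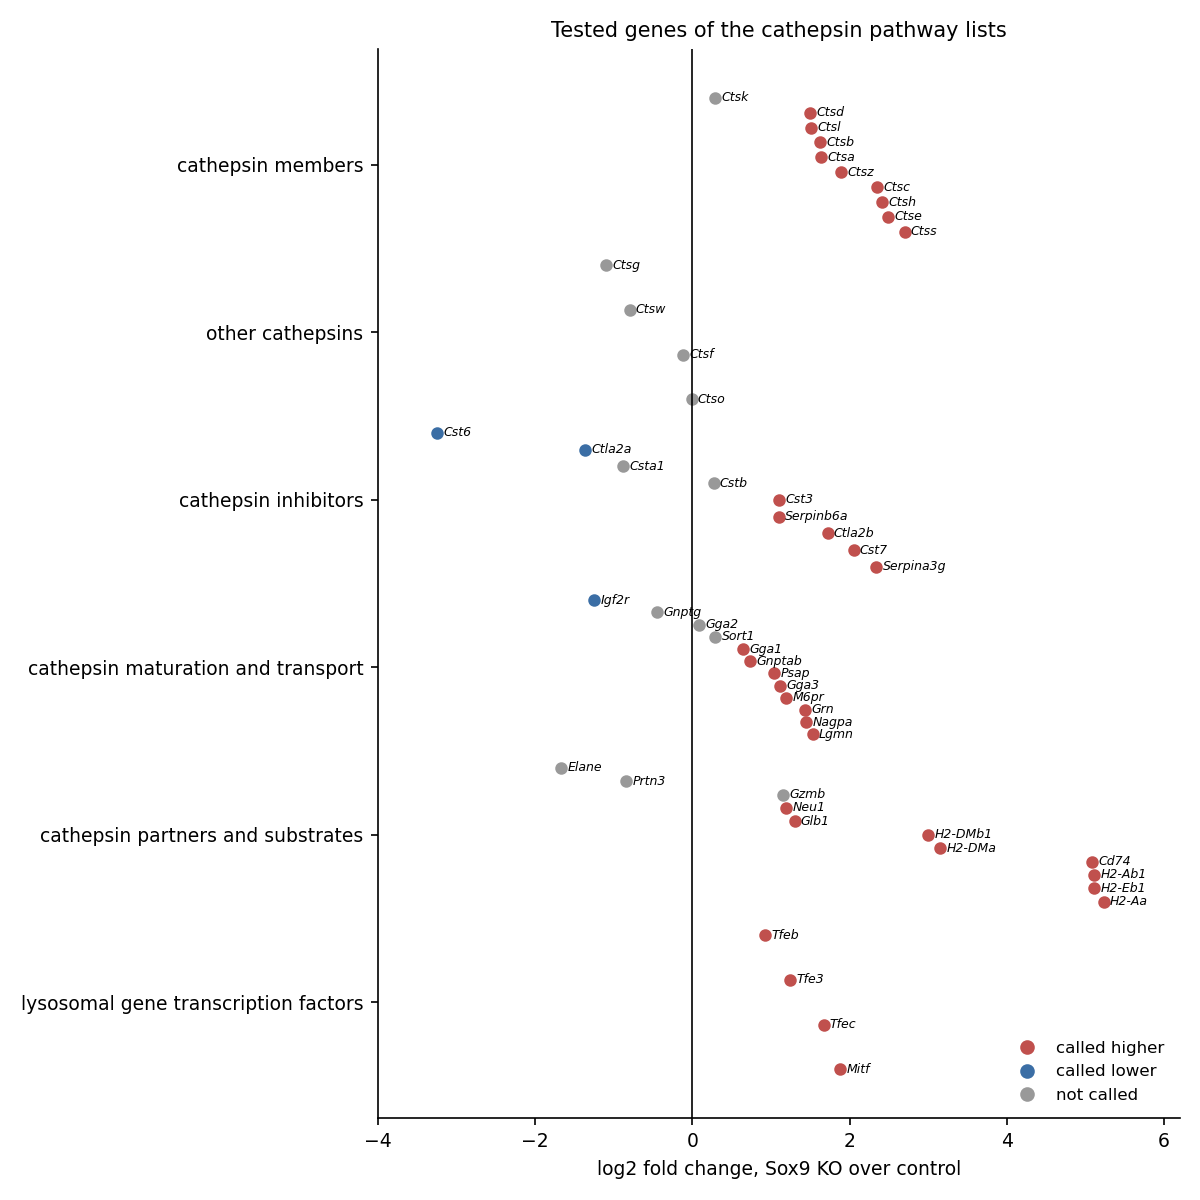
Log2 fold change, Sox9 KO over control, of each tested gene of the cathepsin pathway lists, with genes called higher in red, called lower in blue and not called in grey. Within each list the genes run from the lowest to the highest change, and the rightmost points are the MHC class II genes and Cd74 at 5.09 to 5.23.

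The genes whose pattern over the 6 libraries came closest to each member were found among 11917 other genes with a mean of at least 100 normalized counts. Likeness was the root mean square difference of log2 values, each gene centred on its own mean. Ctss was closest to H2-D1, a class I MHC gene, at 0.116. Ctsc was closest to Cd48, a surface protein of leukocytes, at 0.0521, and Ctsh to Fcgr3, an Fc receptor of myeloid cells, at 0.0497. For the broad members the nearest genes were Cast at 0.0482 for Ctsa, Mb21d1 at 0.0524 for Ctsb, Eya4 at 0.0727 for Ctsd and Clp1 at 0.0405 for Ctsl. Ctsz was closest to Naip6 at 0.0649, Ctsk to Bet1l at 0.112, and Ctse, the most variable member, to Clec2i at 0.471. The number of genes within 0.2 was 31 for Ctss and 52 each for Ctsc and Ctsh. It was 467 for Ctsa, 352 for Ctsb, 385 for Ctsd and 468 for Ctsl. With only 2 groups of 3 libraries, many genes share such a pattern.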

How the data were processed

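RNA-seq libraries were made by the study from total RNA of sorted TurboRFP-positive cells. The authors mapped reads to mm10 with STAR 2.5.0a and normalized counts per gene with DESeq2 1.20.0. The deposited signal values, named RPM, are reads divided by 1 size factor per library: 100% of the values were whole reads within 0.01 read. For KO replicate 1, where 1 read is worth nearly 1, the full digits set the step. The strand setting and annotation of the gene models were not given in the sources used here.

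All 18413 genes with a mean of at least 1 (6008 were left out) were compared on log2(value + 1) in R 4.3.3, using limma 3.58.1, with a variance trend, two-sided tests and adjustment over all genes tested. The added 1 slightly shrinks the log2 fold changes of low genes. That of Ctse was 2.49, against 2.54 with 0.1 added, but 2.22 with edgeR and 2.23 with DESeq2. Calls needed an adjusted p of 0.05 and 1.5-fold. The recovered reads were also tested with edgeR 4.0.16 (4340 genes higher, 5000 lower) and DESeq2 1.42.0 (3994 higher, 5100 lower). Transcript lengths and coordinates came from GENCODE M21 on GRCm38. The test scripts were checked on simulated data. Other pseudocounts, filters, scalings, a replicate block and leaving out each library were tried.

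The members and lists were chosen with earlier results of these data known. Named are the 10 members, Sox9, at most the 4 most abundant genes of each pathway list and the 3 most abundant of each marker list, and the closest gene in pattern of each member, with exceptions marked where they occur.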

Additional observations from a re-analysis of the deposited data

How the results depend on the processing

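Each cathepsin's log2 fold change was recomputed under 17 alternatives, and 168 of the 170 values kept their direction and their side of the threshold. The exceptions were Ctsk at 1.14 after quantile normalization and at -0.02 with equal totals without Rn45s. Leaving out each library in turn kept 9 cathepsins called higher, with Ctss at 2.60 to 2.80, Ctse at 1.99 to 3.12 and Ctsk at 0.00 to 0.51. With the replicate number as a block, 9 were called higher too, but the numbers did not pair the samples (correlations of -0.0513, -0.0134 and -0.013). Under that block, edgeR or quantile normalization 1 inhibitor rather than 2 was called lower, Ctla2a being lost. edgeR also called 1 partner, Elane, lower, a gene read almost only in control replicate 2. Relative to homeostatic microglia markers, 3 cathepsins were called higher, and Ctsa (0.02), Ctsb (0.00) and Ctsz (0.27) changed sign. Relative to pan-myeloid markers, 1 to 2 were called higher without each library in turn. Without division by length, the share of Ctss was 19.3% in controls and 32.9% in KO, that of Ctsb 28.3% and 22.8%, that of the other 7 genes 23.6% and 22.9%, and that of Ctsd 28.8% in controls. With principal transcripts the other 7 took 18.9% and 17.6%. The split of all genes called depends on scaling: it was 4090 higher and 5299 lower as deposited, 5353 and 4122 after quantile normalization, 2936 and 6191 with equal totals, and 2630 and 6597 with equal totals without Rn45s, with the median of all genes shifted by 0.26, -0.23 and -0.31. Depth limits Ctsk and Ctse, whose controls held as few as 17 and 10 reads.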

Other observations

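Markers of neutrophils, cells in which Ctsc is known to activate granule proteases, were low and went the other way from the cathepsins. Of 4 tested, 0 were called higher and 3 lower, and their sum was 514 to 4289 normalized counts in controls and 94.4 to 508 in KO. The upper control value came from replicate 2. There S100a8 was 1721, against 213 and 344 in control replicates 1 and 3, and S100a9 was 2275, against 265 and 542. The groups overlapped for S100a9. Of 7 lymphocyte markers, 2 were called higher and 0 lower, with a sum of 151 to 178 in controls and 363 to 583 in KO. Most of that sum was Cd79b, with means of 104 in controls and 378 in KO. Cd79a went the other way, from 29.2 to 12.9, with overlapping groups. Over all genes tested, 22.2% were called higher and 28.8% lower. Of 8 border macrophage markers, 3 were called higher and 4 lower, and their sum was 18473 to 28008 in controls and 31137 to 37587 in KO. Of 7 monocyte and dendritic cell markers, 2 were called higher and 1 lower, with a sum ratio of 1.01 between KO and control. The markers of neurons (9 of 10 called lower), oligodendrocytes (6 of 6), their precursors (4 of 4), olfactory ensheathing cells (4 of 4) and endothelial and mural cells (4 of 7, with 1 higher) were mostly called lower, the reverse of the 9 cathepsins called.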
